A study of Mus musculus with 6 samples.

Results

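The miR-29 family of microRNAs (miRNAs), short RNAs that pair with messenger RNAs and lower their output, was followed in lipopolysaccharide-activated mouse macrophages with and without RBP-J. Its members were the array's entries named mmu-miR-29a, mmu-miR-29b and mmu-miR-29c, 3 of the 611 mouse miRNAs on the array. Total RNA was taken from macrophages grown from the bone marrow of female mice of the C57BL/6 strain, with 3 arrays per genotype. Knockout samples came from MxCre-RBP-Jf/f mice and control samples from MxCre-RBP-Jf/+ mice, which carry the same Cre and 1 floxed allele and which the labels call WT. Mice of both genotypes had received poly(I)-poly(C), which switches on the interferon-responsive Mx promoter that drives Cre in many cell types. All macrophages had been exposed to lipopolysaccharide (LPS), an activating component of bacterial outer membranes, for 24 h. No untreated macrophages were analysed here, so a response to LPS itself was not measured. RBP-J binds DNA and carries the signal of activated Notch receptors to their target genes, and its own messenger RNA is not on the array.

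The miR-29 miRNAs are best known for repressing messenger RNAs of collagens and other matrix proteins, of DNA methyltransferases and of the survival factor MCL1. Transcription of their genes has been reported to be repressed by MYC and by NF-κB, the factor that Toll-like receptors activate. In T and natural killer cells miR-29 has been tied to repression of interferon-γ.

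The mature strands were looked up in RefSeq (GRCm38.p6), where all 3 matched. They are shown because the members can be told apart only by a few bases outside the seed, the stretch from base 2 to base 8 that selects targets. The seed is in capitals.
miR-29a: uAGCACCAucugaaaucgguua
miR-29b: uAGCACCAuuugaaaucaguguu
miR-29c: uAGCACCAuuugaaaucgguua
Among 1679 mature mouse miRNAs in that table, these 3 alone carry the seed AGCACCA. Counting from 1 at the 5′ end, miR-29a and miR-29c differ by 1 substitution, C10U, and share the other 21 of 22 bases. Probe sequences were not used here, so how far the probes of these miRNAs read each other's target was not tested, and this limit holds for each value of miR-29a against miR-29c. From miR-29a to miR-29b the substitutions are C10U, G18A, U21G and A22U, with 1 extra base at the 3′ end of miR-29b. From miR-29c to miR-29b they are G18A, U21G and A22U. miR-29b and miR-29c thus share uracils at positions 9 to 11, a stretch that has been reported to hasten their turnover, while miR-29a has a cytosine in its middle. The last 6 bases of miR-29b, AGUGUU, have been reported as a signal for import into the nucleus. They end 2 of the 1679 mature miRNAs (0.119%), miR-29b and miR-92b-5p, and neither miR-29a nor miR-29c.

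The 3 miRNAs come from 4 hairpin genes in 2 tandem pairs. Their sequences are given with the mature strand in capitals, because miR-29b is made from both pairs and its signal cannot be assigned to either.
Mir29b-1: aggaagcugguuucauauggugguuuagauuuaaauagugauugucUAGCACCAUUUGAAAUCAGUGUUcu
Mir29a: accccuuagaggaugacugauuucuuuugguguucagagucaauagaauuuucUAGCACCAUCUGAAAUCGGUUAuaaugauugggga
Mir29b-2: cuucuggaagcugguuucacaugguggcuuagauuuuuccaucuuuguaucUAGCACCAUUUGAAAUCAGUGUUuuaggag
Mir29c: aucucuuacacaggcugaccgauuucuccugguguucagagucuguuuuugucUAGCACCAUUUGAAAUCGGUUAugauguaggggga
Mir29b-1 (chr6:31063023-31063093) and Mir29a (chr6:31062660-31062747) lie on the minus strand of GRCm38.p6 with 275 bases between them. No other annotated gene overlaps them. Mir29b-2 (chr1:195037040-195037120) and Mir29c (chr1:195037547-195037634) lie on the plus strand with 426 bases between them, inside the span of the long non-coding RNA gene A330023F24Rik.

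Of the 6 miRNAs fixed as macrophage or myeloid markers (miR-223, miR-142-3p, miR-142-5p, miR-21, miR-155 and miR-146a), all 6 were well above background on the 6 arrays. The 20 erythroid, endothelial, stromal, epithelial and muscle markers were detected on none. Of the lymphoid markers, miR-150 was detected on none and miR-181b, which macrophages also express, on 6. Which cells gave the signal of the myeloid or the lymphoid markers was not tested. The arrays differed in brightness: summed mouse miRNA signal ran from 63437 to 77705 intensity units in control and from 45752 to 58418 in knockout arrays, so that every knockout array was dimmer (exact permutation p = 0.1, the lowest possible with 3 arrays a group). This difference in brightness touches each unscaled value below. On the slide, control replicates 1, 2 and 3 lay in rows 1, 3 and 1 and the knockout replicates in rows 2, 4 and 2. No row held both genotypes, so slide row and genotype cannot be told apart. The labels number the replicates without naming animals or cultures, so p-values measure only the spread between these samples, which may be technical. In bulk RNA, fewer cells of a type and less RNA per cell cannot be told apart.

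All 3 members were clearly detected. Each has 2 probes with 10 spots per array, and 360 of 360 spots were well above background, with none saturated. In the deposited gene-level totals, which are not scaled between arrays, miR-29a read 859, 1045 and 1139 intensity units in control replicates 1, 2 and 3. It read 901, 768 and 835 in the knockout replicates, so 2 of 3 knockout arrays lay below every control. miR-29b read 257, 333 and 418 units in control and 314, 273 and 313 in knockout macrophages. Its knockout arrays all fell inside the control range.

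miR-29c, the dimmest of the 3, read 103, 131 and 130 units in control and 102, 87.7 and 93.5 in knockout macrophages. All 3 knockout arrays lay below every control array. Yet knockout replicate 1 and control replicate 1 differed by less than the scanner software's error estimate of about 7.4% to 7.5%. Group means were 121.3 ± 16.0 and 94.4 ± 7.06 (SD, n = 3 each; exact permutation p = 0.1), a ratio of 0.778. Summed signal of all mouse miRNAs had a ratio of 0.770 on the same arrays, and 28.1% of the 135 tested miRNAs showed every knockout total below every control total. The lower unscaled miR-29c signal was thus of the size of the overall brightness difference.

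**Figure D1:**
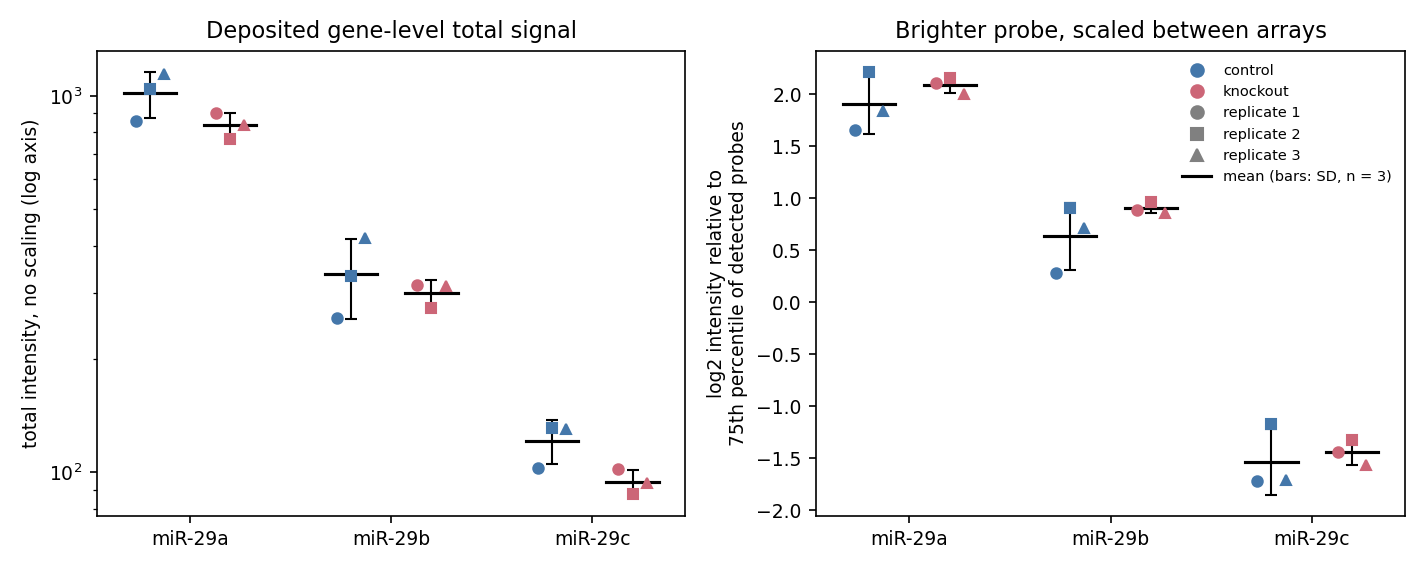
Signal of miR-29a, miR-29b and miR-29c on each array: deposited total intensity with no scaling (left, log axis) and log2 intensity of the brighter probe relative to each array's 75th percentile of detected probes (right). Points are arrays, thick lines group means and bars the SD (n = 3). On the left the knockout means lie below control for all 3 members, on the right above, and on the right the knockout arrays spread less than the control arrays.

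Once each array was divided by its 75th percentile over probes detected on all 6 arrays, the family no longer read lower in the knockout. On this log2 scale miR-29a stood at 1.66, 2.22 and 1.84 in control replicates 1, 2 and 3 and at 2.10, 2.16 and 2.01 in the knockout replicates. miR-29b stood at 0.28, 0.91 and 0.71 in control and at 0.89, 0.96 and 0.86 in knockout macrophages. miR-29c stood at -1.72, -1.17 and -1.71 in control and at -1.44, -1.32 and -1.56 in knockout macrophages. Control replicate 1 was the lowest array for each of the 3, the knockout arrays sat close together, and the groups overlapped for every member. Over all tested miRNAs, groups failed to overlap for 14 of 135 (10.4%).

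No member passed the test between genotypes. In limma's fit over 135 miRNAs, miR-29a was 0.18 above control in the knockout (SE 0.18; 95% interval -0.24 to 0.61; adjusted p = 0.721; exact permutation p = 0.4). miR-29b had the largest value of the 3, 0.27 (SE 0.19; interval -0.17 to 0.71; adjusted p = 0.637; exact permutation p = 0.3). miR-29c was at 0.09 (SE 0.20; interval -0.36 to 0.54; adjusted p = 0.868; exact permutation p = 0.7). As folds of knockout over control, the intervals ran from 0.847 to 1.52 for miR-29a, from 0.888 to 1.64 for miR-29b and from 0.780 to 1.46 for miR-29c. These bounds hold for this scaling and do not cover the shift between scalings.

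Values above 0 were common on the array under this scaling. Of the 135 tested miRNAs, 97 (71.9%) had a fitted difference above 0, and the median miRNA stood at 0.11. That share was 44.4% with the percentile over all mouse probes, 49.6% with quantile scaling, 48.1% in the series matrix and 10.4% with no scaling. Quantile scaling gives every array the same distribution, so a median near 0 was largely built in. In the series matrix miR-29b read exactly 8.49283 in control replicate 2 and in knockout replicates 2 and 3. Exact repeats also occurred for miR-29a, with 9.921726 in control replicate 2 and knockout replicate 1. miR-29c read 6.801226 in control replicate 3 and knockout replicate 2. The median difference in that matrix was 0, as with quantile scaling, so its share of 48.1% may be built in as well. Whether that matrix was quantile scaled was not tested. Relative to the median of 0.11 the members stood at 0.07, 0.16 and -0.02 for miR-29a, miR-29b and miR-29c. With no scaling between arrays the differences turned to -0.27, -0.18 and -0.36, where the median miRNA stood at -0.31. Relative to it they were then 0.04, 0.12 and -0.05. With normexp background correction, run with an offset of 50 intensity units, the values relative to the median were -0.10, -0.03 and -0.09. An added offset weighs most on dim signals, and its share in these values was not tested. Without control replicate 1 the values relative to the median were -0.06, -0.03 and -0.12. miR-29a and miR-29b thus lay above the median miRNA in the full set and below it under these 2 settings. limma called 0 of 135 miRNAs (0%) at an adjusted p under 0.05, and 6 (4.44%) had an unadjusted p under 0.05. Of these 6, 5 (3.7%) were higher and 1 (0.741%) lower, and none was a member.

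**Figure D2:**
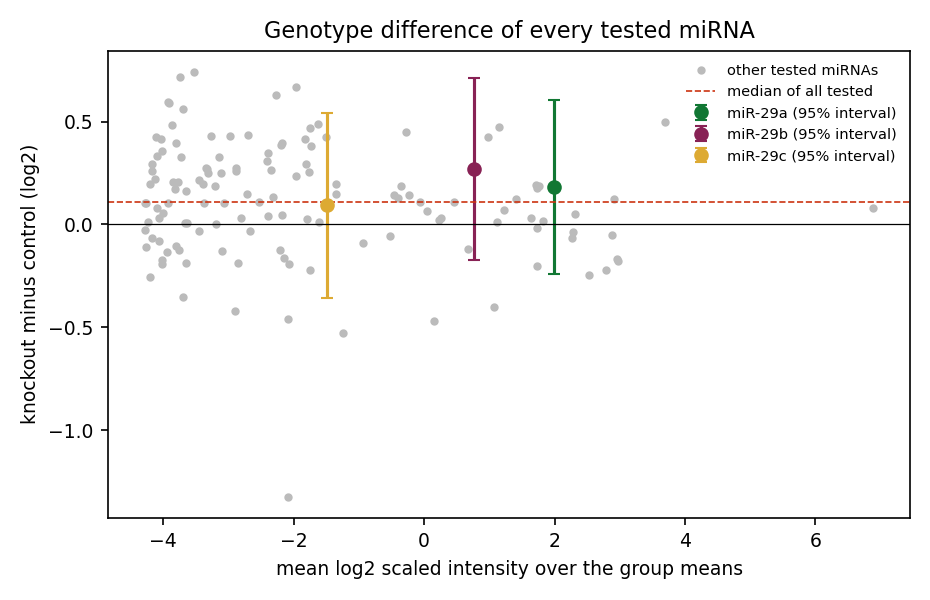
Fitted genotype difference (log2, knockout minus control) of the 135 tested miRNAs against their mean log2 scaled intensity. Grey points are other miRNAs, coloured points the 3 members with 95% intervals, and the dashed line is the median miRNA at 0.11. The member intervals all span 0 and the median.

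The control arrays carried most of the members' spread. The SD over 3 arrays was 0.28 in control against 0.08 in knockout macrophages for miR-29a, 0.32 against 0.05 for miR-29b and 0.32 against 0.12 for miR-29c. Across the 135 tested miRNAs the control SD was the larger for 76 (56.3%), with medians of 0.22 and 0.20. Pooled over genotypes, the members' SDs of 0.21, 0.23 and 0.24 lay near the median of 0.23. Without control replicate 1 the differences were 0.04 for miR-29a, 0.07 for miR-29b and -0.025 for miR-29c, so their size in the full set leaned on that array. Without control replicate 2, the highest control array for each member, they were 0.30, 0.37 and 0.24 (limma adjusted p = 0.783, 0.783 and 0.802).

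The 2 probes of each member gave genotype differences of the same sign, closest in size for miR-29b. Within an array they read the same miRNA at unequal brightness. The log2 gap between them averaged 1.34 in control and 1.41 in knockout arrays for miR-29a, and 0.27 and 0.34 for miR-29c. For miR-29b the brighter probe exceeded the dimmer one by 3.10 in control and 3.12 in knockout arrays, and this gap spanned 0.06 over the 6 arrays while the probe signals spanned 0.68 and 0.64. The gap spanned 0.13 for miR-29a, with signals spanning 0.56 and 0.52. For miR-29c it spanned 0.21, more than its genotype difference of 0.09, with signals spanning 0.55 and 0.57. Genotype differences by the brighter and dimmer probe were 0.18 and 0.12 for miR-29a, 0.27 and 0.25 for miR-29b and 0.09 and 0.02 for miR-29c. The probes' differences were therefore 0.07, 0.02 and 0.08 apart, where the median over 96 miRNAs with more than 1 detected probe was 0.05. Flagged outlier spots, 13 of 360, were left out first. The SD of the remaining repeat spots of a probe on an array was 0.808% to 9.47% of their mean.

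**Figure D3:**
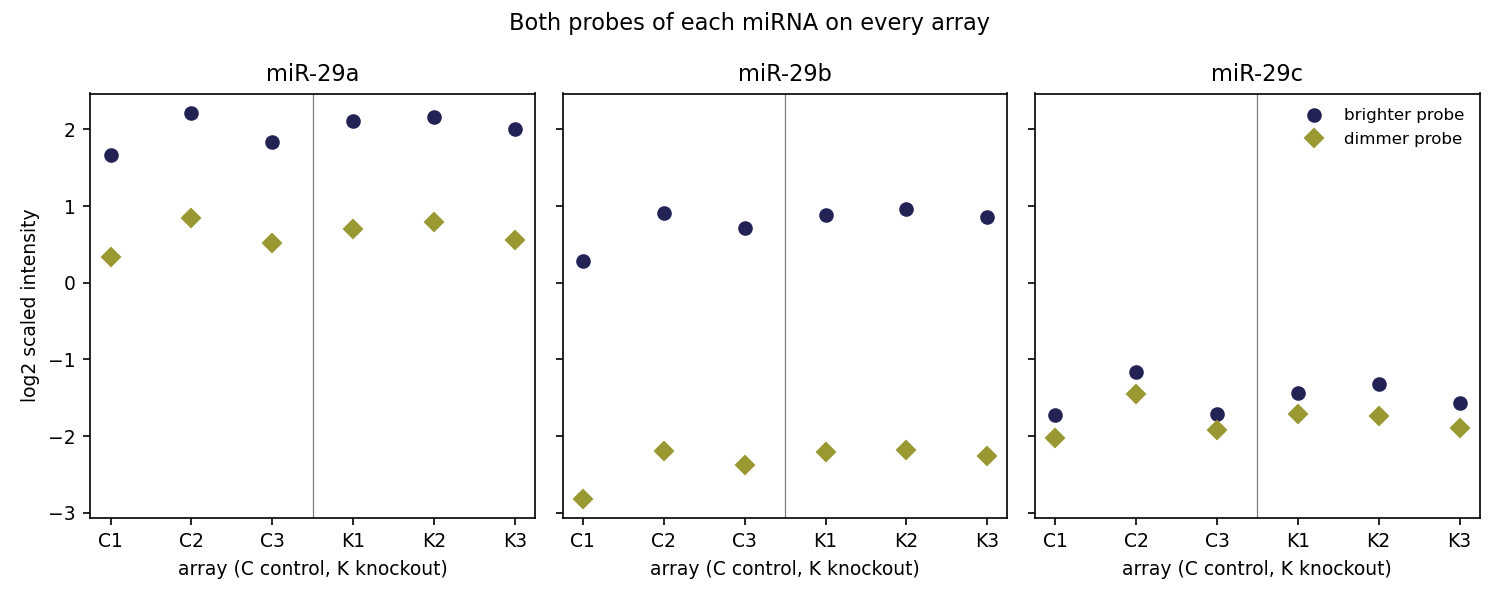
Log2 scaled intensity of both probes of miR-29a, miR-29b and miR-29c on the 6 arrays (C1 to C3 control, K1 to K3 knockout). Circles are the brighter and diamonds the dimmer probe, each the median of up to 10 spots. The 2 probes of a member follow each other from array to array, with a gap near 3.1 for miR-29b and near 0.3 for miR-29c.

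Ratios between members cancel the scaling between arrays. Because probes of a single miRNA can differ by 3.10 on the log2 scale, a ratio between members does not give their relative abundance, and only its change between arrays is read. The log2 ratio of miR-29a to miR-29b, both made from the chromosome 6 pair, was 1.38, 1.31 and 1.13 in control replicates 1, 2 and 3. In knockout macrophages it was 1.21, 1.19 and 1.14, inside the control range, and the means were 0.09 apart (exact permutation p = 0.4; adjusted p = 0.4 over 3 ratios).

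The ratio of miR-29a to miR-29c, the closest in sequence, carries the limit that signal of either on the probes of the other was not tested. It was 3.38, 3.38 and 3.55 in control and 3.54, 3.48 and 3.57 in knockout arrays. The means differed by 0.09 (SE 0.06; exact permutation p = 0.3; adjusted p = 0.4), a change of 1.07-fold. With normexp background correction and its offset of 50 units this difference was -0.0070.

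The ratio of miR-29c to miR-29b, both made from the chromosome 1 pair, is fixed by the other 2 ratios. Their differences had opposite signs as scaled and background-corrected here, so this ratio necessarily had the largest difference of the 3. It was -2.00, -2.08 and -2.42 in control and -2.33, -2.28 and -2.43 in knockout macrophages. The mean was -2.17 ± 0.22 in control and -2.35 ± 0.07 in knockout macrophages (SD, n = 3 each), a difference of -0.18 (SE 0.14) that did not pass the test (exact permutation p = 0.3; adjusted p = 0.4). Control replicate 3 lay among the knockout arrays, and 1 of 3 knockout arrays lay below every control. In the first column of the slide, which held replicates 1 and 2 of both genotypes, the difference was -0.27. In the second, with replicate 3 of both, it was -0.0030. Without control replicate 1 it was -0.09, and without control replicate 3 it was -0.31. With normexp background correction and its offset of 50 units it was -0.06, smaller than the -0.07 of miR-29a to miR-29b.

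All 4 probe combinations gave a lower miR-29c to miR-29b ratio in the knockout, from -0.15 to -0.26, with overlapping groups in each. All 4 gave a lower miR-29a to miR-29b ratio, from -0.06 to -0.15. All 4 gave a higher miR-29a to miR-29c ratio, from 0.02 to 0.17, and in 1, the brighter miR-29a with the dimmer miR-29c probe, the groups did not overlap (exact permutation p = 0.1). Combinations share probes and arrays and are not independent. Over all 9045 pairs of tested miRNAs, 13.4% of ratios did not overlap between genotypes. An error on a ratio of gene-level totals was combined from the scanner software's error estimates of both miRNAs, taken as independent. It was 0.15 to 0.17 on the log2 scale for a single array. Ratios of these totals differed between genotypes by -0.14 for miR-29a to miR-29b, 0.08 for miR-29a to miR-29c and -0.22 for miR-29c to miR-29b.

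**Figure D4:**
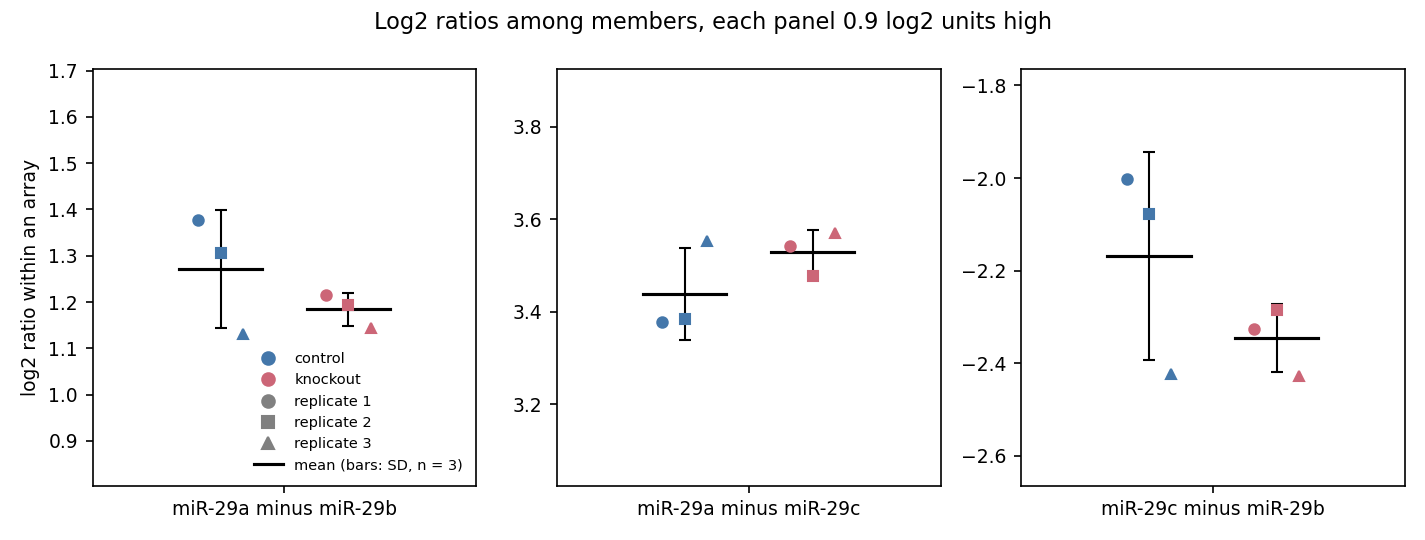
Log2 ratios among miR-29a, miR-29b and miR-29c within each array. Points are arrays, thick lines means and bars the SD (n = 3), and each panel spans the same height. Control replicate 3 lies within or beside the knockout arrays in all 3 panels, while control replicates 1 and 2 lie outside the knockout range in each.

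The passenger strands, the other arms of the same hairpins, gave little signal. miR-29a* read 0.460 to 3.10 intensity units and was well above background on 0 of 6 arrays, although the scanner software marked it as detected on 1. miR-29c* read 7.63 to 11.3 units and also met the rule, at least 50% of spots, on 0 arrays, although the scanner software marked it as detected on 5. miR-29b* read 3.28 to 8.10 units and met the rule on 5 arrays (6 by the scanner software), which made it the 1 tested strand of 3. Its log2 signal of -4.24 ± 0.10 in control and -4.02 ± 0.14 in knockout macrophages (SD, n = 3 each) lay close to the floor of -4.32, with a difference of 0.22 (SE 0.16; limma adjusted p = 0.637). Its name does not say which of the Mir29b hairpins it stands for, and their 5′ arms differ in sequence.

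Since limma called 0 of the 135 tested miRNAs (0%), no list of miRNAs tied to the regulation or targets of miR-29 could hold a call. Of 16 reported, like miR-29, to be repressed by MYC, 15 were tested, with 0 higher and 0 lower past the threshold. Of the 15, 11 stood above 0 and 4 below, where 97 of all 135 tested miRNAs (71.9%) stood above. Their median difference was 0.11, as for all tested miRNAs, because the same miRNA of this list was the median of both. The smallest p-values belonged to miR-34a, which p53 induces, at 0.43 (SE 0.19; limma adjusted p = 0.637), and to let-7d, of the growth-restraining let-7 family, at 0.19 (SE 0.15; adjusted p = 0.668). Of 5 other miRNAs reported to target DNA methyltransferases, 2 were tested and 0 passed. These were miR-101a at -0.19 (SE 0.21) and miR-148b at -0.08 (SE 0.18), both dim. Of 9 miRNAs tied to LPS or NF-κB in macrophages, 7 were tested and 0 passed, with 3 above and 4 below control and a median of -0.04. In that list miR-125b-5p stood at -0.19 (SE 0.18) and miR-223, a granulocyte and macrophage miRNA, at -0.22 (SE 0.28). miR-146a is on both the MYC and the LPS list.

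The lowest and the highest array for the family as a whole were both control arrays. After each array's median tested miRNA was taken off, the mean log2 value of the 3 members was 2.58, 3.12 and 2.88 in control replicates 1, 2 and 3 and 2.91, 2.87 and 2.90 in the knockout replicates. miR-29a correlated at 0.91 with miR-29b and 0.88 with miR-29c, and miR-29b with miR-29c at 0.61 (Pearson r over 6 arrays, as a description). Of the 132 other tested miRNAs, miR-27a, of the miR-23/27/24 clusters, followed the family mean most closely, with r = 0.91. It stood at 3.50, 4.77 and 4.18 in control and at 3.87, 4.20 and 4.02 in knockout macrophages, again lowest in control replicate 1 and highest in control replicate 2. Next came miR-296-5p (r = 0.90), miR-188-5p (r = 0.88), miR-705 (r = 0.83) and miR-15a (r = 0.81). All these values share the same 6 arrays.

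**Figure D5:**
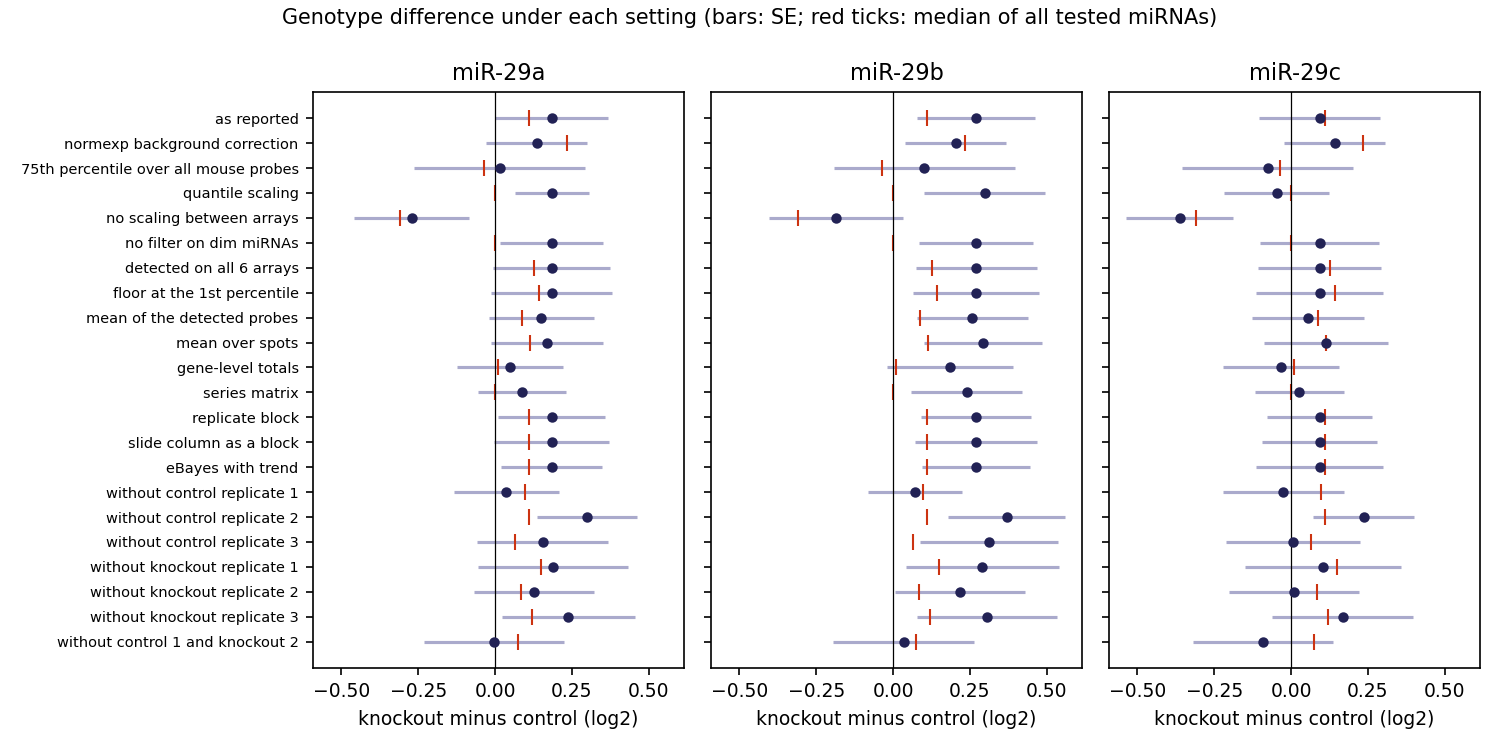
Genotype difference (log2, knockout minus control) of each member as reported and under 21 other settings. Points are fitted values, bars the SE, and red ticks the median of all tested miRNAs under that setting. With no scaling between arrays all 3 points and the median fall below 0. miR-29a and miR-29b each lie above the median in 18 of the 21, and miR-29c in 4. These counts include the setting with no filter on dim miRNAs. There the median is 0, and 452 of the 611 miRNAs were detected on no array.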

How the data were processed

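Cy3-labelled total RNA was hybridised to 1-colour Agilent mouse miRNA arrays of design 021828. The spot intensity values had their background subtracted and a spatial trend removed, per the file headers, which name Feature Extraction version 10.5.1.1. The submitters' processing notes name 9.1. They are not scaled between arrays. The authors' deposited gene-level intensity totals come from the same software. The series matrix of the authors is on a log2 scale, and how it was made is not stated in these sources.

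Each of the 1759 mouse probes took the median processed intensity of its unflagged spots. It counted as detected where 50% or more of its spots were well above background. Arrays were scaled to the 75th percentile of the 200 probes detected on all 6, raised to a floor (5th percentile of detected signals) and log2 transformed. A miRNA took its probe with the highest mean and was tested when detected on at least 3 arrays. Genotypes were compared with limma 3.58.1 (R 4.3.3) and Benjamini-Hochberg adjustment over all tested miRNAs, and single values by two-sided exact permutation. Named miRNAs were the members, all passenger strands, the 2 smallest p-values of each list and the 5 most like the family mean. Members and lists were chosen with earlier results of these data known. The procedure was tested on simulated data. The number of arrays limits the precision. Columns of the series matrix without a sample numbered 0. RefSeq sequences are of GRCm38.p6, and probe sequences were not used here, so cross-hybridisation between members was not tested.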

Additional observations from a re-analysis of the deposited data

How the results depend on the processing

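limma called 0 miRNAs as reported and under each of the 21 alternatives, so no member passed under any of them (smallest adjusted p 0.352 for miR-29a, 0.343 for miR-29b and 0.261 for miR-29c). With no scaling between arrays the signs turned to -0.27, -0.18 and -0.36, where the median of all tested miRNAs was -0.31. miR-29c also turned with the percentile over all mouse probes (-0.076), quantile scaling (-0.046) and gene-level totals (-0.033). Without both control replicate 1 and knockout replicate 2, miR-29a stood at -0.0040 and miR-29c at -0.091. Leaving out each array in turn gave 0.04 to 0.30 for miR-29a, 0.07 to 0.37 for miR-29b and -0.025 to 0.24 for miR-29c. It gave -0.16 to -0.03 for the miR-29a to miR-29b ratio, 0.06 to 0.15 for miR-29a to miR-29c and -0.31 to -0.09 for miR-29c to miR-29b. The miR-29a to miR-29c ratio turned to -0.0070 with normexp. The cause of these turns was not tested. At an unadjusted p under 0.05, counts of higher and lower miRNAs were 5 and 1 as reported, 22 and 3 with normexp, 1 and 8 with quantile scaling and 0 and 26 with no scaling. Deviations of same-numbered samples correlated at 0.17, -0.07 and 0.37, and those of differently numbered samples at -0.29 to 0.16. With 3 samples per genotype these values do not settle whether the numbers mark pairs. The reported fit did not use them, and a fit with the replicate number as a block is given beside it. With the replicate block the adjusted p-values were 0.638, 0.538 and 0.813 for miR-29a, miR-29b and miR-29c, and 11 higher and 2 lower miRNAs had an unadjusted p under 0.05. Within slide column 1 the differences were 0.19, 0.33 and 0.06, and within column 2, with 1 array per genotype, 0.17, 0.15 and 0.15.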
